A study of Arabidopsis thaliana with 6 samples.

Results

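Leucine-rich repeat receptor kinases were compared between anac089-2 mutant seeds of Arabidopsis thaliana and seeds of the background accession, wild-type Columbia-0 (Col-0). Members were all probe sets of the array, controls aside, whose title in the authors' deposited comparison table holds both "leucine-rich repeat" and "kinase", which gave 197 of 22746. Of these, 121 titles name a transmembrane protein kinase, 41 a protein kinase and 35 a protein kinase family. The platform's probe annotation lists 1 gene for each of 121 members, at 121 distinct loci, several genes for 4 and none for 72. A member without a listed gene is called here by its probe set.

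Both groups were stratified in water, dark and at 4 °C, over 3 days, and then spent 3 h in light at 22 °C with 5 µM ABA (abscisic acid), which restrains germination. Each group had 3 biological replicates, with 1 Affymetrix ATH1 array each, and signals are log2 values per probe set after robust multi-array averaging. All seeds received ABA, so an altered ABA response and a difference independent of ABA cannot be told apart. ANAC089 is a transcription factor of the plant NAC family. The labels do not describe the lesion of the allele, and its effect on ANAC089 was not checked, since no probe set could be assigned to that gene here.

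Receptor kinases of this family carry leucine-rich repeats outside the cell, a single membrane pass and a kinase domain inside. The repeats bind peptides, steroids or microbial fragments, and many of the receptors signal together with a shorter co-receptor of the SERK group. In seeds, members of the family are known for endosperm growth and for the sealing of the embryo surface. Others are known for brassinosteroid perception, stomatal patterning, vascular growth and pattern-triggered immunity.

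With 3 arrays a group, the number of arrays sets the precision of all values. Array medians over all probe sets lay between 3.97 and 4.01 on 5 arrays and at 3.80 on wild-type replicate 3, whose mean correlation with the other arrays of its group was 0.982 (0.987 to 0.996 for the others). Among the 55 members with a mean signal of at least 4, this array alone was the lowest of the 6 for 37 (67.3%), against 54.8% of all probe sets at such signals. At signals of 4 to 6, where 40 of the 55 lie, these shares were 72.5% and 65.4%. Calls of members that change without this array, and differences pointed out as resting on it, are therefore given with and without it. Seed markers matched to a probe set were the storage protein genes CRA1 and CRU2, the oleosin gene OLEO3, and EM1 and EM6 of late embryogenesis. All 5 had mean signals from 8.97 to 13.99. Of the other matched markers, 5 of 6 for green leaf, 4 of 5 for root and 3 of 5 for endosperm and seed coat lay under 4. The log2 of the summed seed marker signal was 15.35 to 15.50 in wild type and 15.19 to 15.26 in anac089-2. CRU2 and EM1 fell by 0.66 and by 0.79 on the log2 scale (limma adjusted p = 0.0209 and 0.0262), and both calls were lost without any 1 of the mutant arrays or without wild-type replicate 1, and that of EM1 also without wild-type replicate 2. The green leaf sum was 6.39 to 6.69 in wild type and 7.00 to 7.11 in the mutant. RCA, for RuBisCO activase, differed by 0.99 (limma adjusted p = 0.0215), while the other 5 of the 6 green leaf markers differed by -0.09 to 0.15, and the median of the 6 was -0.075. The call of RCA was lost without any 1 mutant array or without wild-type replicate 2. The endosperm and seed coat sum was 5.69 to 6.16 in wild type and 6.23 to 6.32 in the mutant. There TTG1 differed by 0.66 (limma adjusted p = 0.203), or 0.36 without wild-type replicate 3, MEA by 0.13, FWA by 0.20, BAN by -0.03 and FIS2 by -0.20, and 0 of the 5 passed. The root sum overlapped between the groups, at 5.54 to 5.72 and 5.58 to 5.70. In whole seeds, fewer cells of a type and less RNA per cell cannot be told apart, and the part of these shifts in the results below was not tested.

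Of the 197 members, 5 were higher in anac089-2 and 0 were lower at a limma adjusted p below 0.05, with Benjamini-Hochberg adjustment over all probe sets. That is 2.54% of the members, against 2.94% of all probe sets higher and 1.98% lower, so the share called higher was near that of the array as a whole. At an unadjusted p under 0.05, 30 members were higher and 4 were lower, where 13.2% and 6.12% of all probe sets were. The authors' deposited table calls the same 5 members. All 5 carry the title of a transmembrane protein kinase, and 4 of them have a listed locus.

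The member with the largest difference has no listed gene and is labelled by its probe set in the plot of the called members. Its log2 signals were 4.38, 4.48 and 3.97 in wild type and 6.24, 5.85 and 5.67 in anac089-2. The lowest mutant array lay 1.19 above the highest wild-type array. The means were 4.28 ± 0.270 (SD, n = 3) and 5.92 ± 0.291 (SD, n = 3), a rise of 3.12-fold (log2 difference 1.64 ± 0.190 SE, limma adjusted p = 0.0117). Without wild-type replicate 3 the rise was 1.49 (limma adjusted p = 0.0116).

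AT5G01950 had the next largest difference. Its wild-type arrays gave 5.48, 5.55 and 4.92, and mutant arrays gave 6.98, 6.17 and 6.43. The groups did not overlap, and mutant replicate 1 stood above the other mutant arrays. The log2 difference was 1.21 ± 0.246 (SE, limma adjusted p = 0.0389).

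For AT1G07650 the wild-type signals were 4.15, 3.46 and 3.63, whereas the mutant signals were 4.91, 4.91 and 4.93. The mutant arrays were nearly equal and the spread lay in wild type, with replicate 1 the highest there. AT1G07650 rose by 1.17 ± 0.176 on the log2 scale (SE, limma adjusted p = 0.0174).

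AT3G24240 showed 4.52, 4.59 and 3.99 in wild type and 5.40, 5.42 and 5.38 in anac089-2. Here too the mutant arrays lay close together above every wild-type array. The rise was 1.03 ± 0.165 (SE, limma adjusted p = 0.0203). AT3G28040, the member with the smallest change among the 5, gave 3.99, 4.17 and 3.67 in wild type and 4.70, 4.68 and 4.51 in the mutant. Its groups were apart by 0.34, and it rose by 0.69 ± 0.145 (SE, limma adjusted p = 0.0435). Wild-type replicate 3 was the lowest array for 4 of the 5 called members, AT1G07650 being the exception. All 5 passed the threshold without that array, with log2 differences of 0.55 to 1.49.

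The calls depended on single arrays, for the members as for all probe sets, of which 1120 passed with all 6 arrays. Without mutant replicate 1 or without mutant replicate 3, 0 of the 5 passed, and 6 and 4 of all probe sets did. Without mutant replicate 2 the member with the largest difference was the only one that passed (limma adjusted p = 0.0382), and 470 of all probe sets did. Without wild-type replicate 1, AT1G07650 and AT3G24240 passed beside it, and without wild-type replicate 2, AT3G24240 did. In these 2 sets 521 and 301 of all probe sets passed. AT5G01950 and AT3G28040 thus kept their calls in 1 of the 6 sets that leave out an array, the one without wild-type replicate 3. The log2 differences in these sets were 0.98 to 1.39 for AT5G01950 and 0.55 to 0.80 for AT3G28040. Since the groups did not overlap for any of the 5, leaving out an array could not turn a difference negative.

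**Figure D1:**
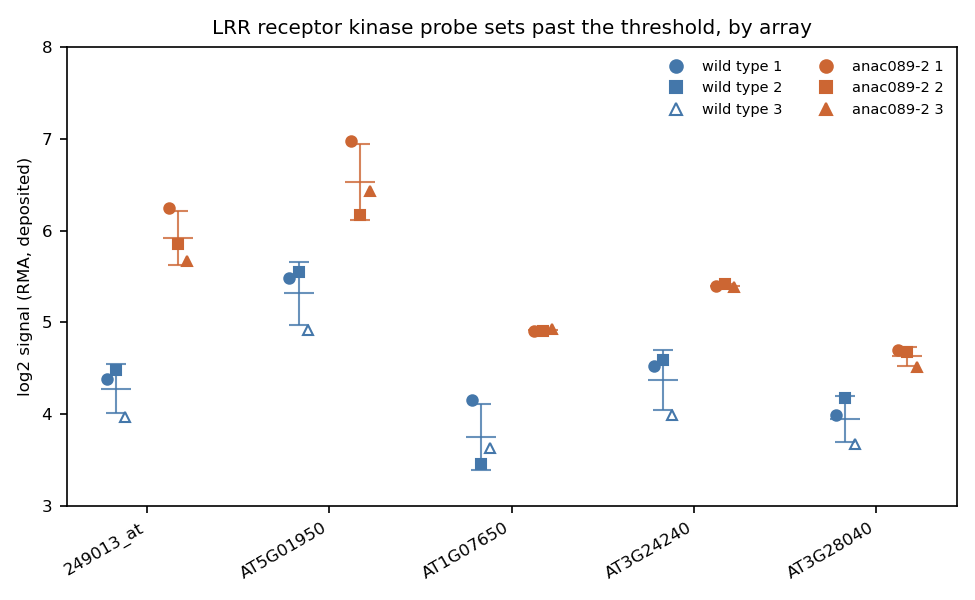
Log2 signal (vertical axis) of the 5 leucine-rich repeat receptor kinase probe sets past the threshold, by array, with wild type in blue and anac089-2 in orange; symbols mark the replicates, and bars show the mean ± SD (n = 3). For each probe set all mutant arrays lie above all wild-type arrays, and wild-type replicate 3 (open triangles) is the lowest array for 4 of the 5.

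Outside of these 5, the largest positive difference was that of AT2G02780, with 4.89, 5.08 and 4.02 in wild type and 6.12, 5.51 and 5.44 in the mutant. The groups were apart, but wild-type replicate 3 lay well below the other arrays of its group, and the difference of 1.03 ± 0.303 (SE) did not pass (limma adjusted p = 0.112). Without that array it was 0.70. Among members closest to the threshold from outside were AT1G34110, with a log2 difference of 0.77 (limma adjusted p = 0.0557), 256482_at with 0.67 (0.0632) and 247153_at with 0.98 (0.0660). These 3 were chosen after their values were seen. Without wild-type replicate 3, 10 members were higher and 2 lower, against 4% and 3.33% of all probe sets. AT1G34110 and 256482_at passed there with limma adjusted p-values of 0.0361 and 0.0403. AT5G63410 also passed there at 0.455 (limma adjusted p = 0.0465), against 0.77 (0.149) with all arrays. AT1G67720 passed there at 0.48 (limma adjusted p = 0.0472), against 0.39 (0.137) with all arrays.

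The patterns over the 6 arrays most like that of the member with the largest difference, by Pearson correlation among the members, were those of AT3G28040 (0.970), AT3G24240 (0.968), AT5G01950 (0.966), 247153_at (0.934) and 256482_at (0.923). The 6 points share 2 genotypes, so members that differ between the groups are alike by that alone, and the values are a description.

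At the other end, no member passed as lower. The most negative difference, that of AT5G58150, was -0.65 ± 0.316 (SE, limma adjusted p = 0.322). Wild type gave 3.59, 3.79 and 4.90, and the mutant gave 3.36, 3.50 and 3.46. Here wild-type replicate 3 was the highest array, and without it the difference was -0.25 and no longer the most negative (limma adjusted p = 0.222). The probe set 266231_at gave 8.50, 8.35 and 8.25 in wild type and 7.80, 8.06 and 7.84 in the mutant. All mutant arrays were below all wild-type arrays, with a difference of -0.47 (limma adjusted p = 0.0710). AT2G01820 gave 7.97, 8.00 and 7.77 against 7.41, 7.54 and 7.55. Its groups were also apart, with a difference of -0.41 (limma adjusted p = 0.0753). Without wild-type replicate 3 both passed as lower, 266231_at at -0.53 (limma adjusted p = 0.0419) and AT2G01820 at -0.49 (0.0285). The remaining members of the 5 most negative were AT5G25930 (-0.41, limma adjusted p = 0.276) and AT5G49760 (-0.39, 0.241).

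Across the 197 members the log2 difference ranged from -0.65 to 1.64, with a median of 0.06 beside 0.04 over all probe sets. After centring each array on its median, these were -0.027 and -0.05, so the sign of both depends on the scaling. A positive difference was found for 128 members (65.0%, against 57.0% of all probe sets) and a negative one for 69. Differences of at least 0.5 were positive for 20 members (10.2%, against 8.76%) and negative for 1 (0.508%, against 3.79%). Of the 20, 19 had the title of a transmembrane protein kinase. The groups did not overlap for 30 members higher in the mutant and for 10 lower, while 15.8% and 8.23% of all probe sets were apart in these directions.

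Most members had a low signal. The mean signal was under 4 for 142 members and at least 4 for 55, or 27.9%, where 49.3% of all probe sets reached 4. No source used here gives signal over background, so a low signal is not read as absence. The lines at 4 and 6 were chosen after the values were seen. Probe sets differ in how strongly they bind, so signals do not order transcripts by amount. The 5 highest mean signals were those of 264663_at (mean signal 10.27), 248698_at (8.92), 260345_at (8.15), 266231_at (8.13) and AT2G01820 (7.71). The first 3 of these differed by 0.04, -0.02 and 0.00 on the log2 scale, with limma adjusted p-values of at least 0.880.

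The 5 called members had mean signals from 4.29 to 5.92. With all arrays, 0 of 142 members passed under 4, where 0.208% of all probe sets were higher and 0.0521% lower, and 0 of 15 passed at 6 or more, where 6.9% were higher and 5.7% lower. Of these 15, the groups were apart and higher in the mutant for 4 (26.7%, against 27.7% of all probe sets at such signals). They were apart and lower for 2 (13.3%, against 17.1%). The 9 members at 7 or more had a median difference of -0.003, against 0.07 for all probe sets there. The mean signal includes the mutant arrays, and some members reach 4 only through them, such as AT1G07650 with a wild-type mean of 3.75, so nothing is read from a count within a signal range.

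**Figure D2:**
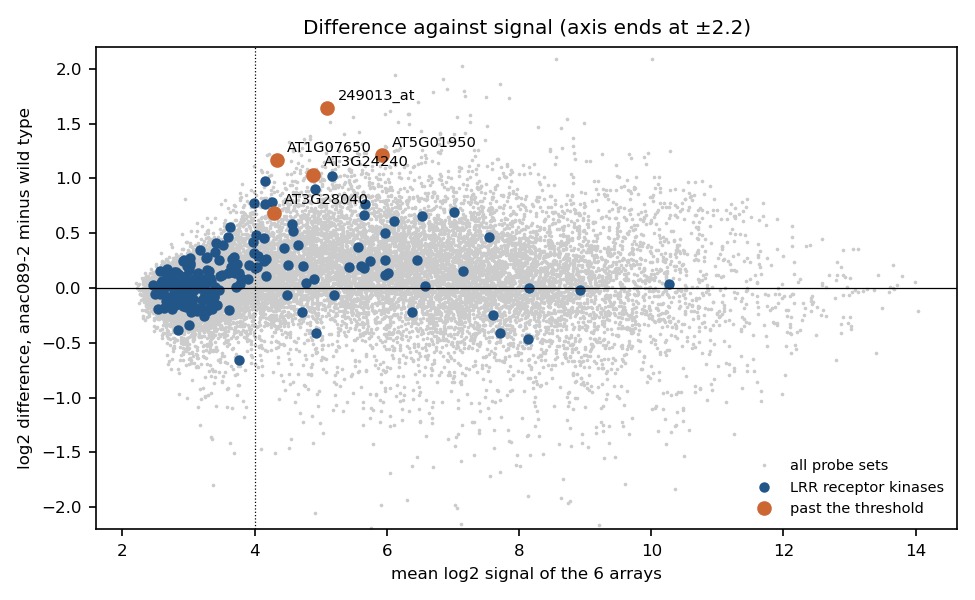
Log2 difference, anac089-2 minus wild type (vertical axis, ending at ±2.2), against the mean log2 signal of the 6 arrays (horizontal axis) for all probe sets (grey), the 197 leucine-rich repeat receptor kinases (blue) and the 5 past the threshold (orange). Members gather at signals under 4 (dotted line) with differences near 0, and the called members lie between signals of 4 and 6.

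All 5 called members were among the 121 titled transmembrane protein kinases (4.13%, against 2.94% of all probe sets called higher). Their median difference was 0.11, and 88 were positive (72.7%, against 57.0% of all probe sets). A mean signal of at least 4 was found for 37 of them. Among the 41 titled protein kinases 0 passed, the median difference was -0.01 and 2 had a mean signal of at least 4. Among the 35 titled as a kinase family 0 passed, with a median of 0.03 and 16 at a signal of at least 4. For comparison, 102 probe sets with leucine-rich repeats but no kinase in the title gave 1 higher and 1 lower, with a median of 0.04. The 1022 other titles with kinase gave 13 higher (1.27%) and 19 lower (1.86%), with a median of 0.02. These are counts, and the difference between the title groups was not tested.

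Of the members, 10 could be matched by symbol or synonym to the role lists, and 0 of them passed. Among all probe sets 2.94% were higher and 1.98% lower, so nothing is read from 0 of 10. PXL2, known here by its locus tag AT4G28650, was matched through a synonym. The other members known by locus tag or probe set alone found no match. Listed receptors may therefore be among them, also among the 5 called. ERECTA, the receptor of epidermal patterning peptides that acts in stomatal patterning and organ growth, gave 3.70, 3.85 and 4.19 in wild type and 4.24, 4.58 and 4.29 in anac089-2. The groups were apart by 0.05, between wild-type replicate 3 and mutant replicate 1. The difference was 0.46 ± 0.158 (SE, limma adjusted p = 0.168), and without wild-type replicate 3 it was 0.60 and passed (limma adjusted p = 0.0412).

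GSO1, the receptor that acts with the peptide TWS1 in sealing the embryo surface and with CIF peptides in the root barrier, gave 4.00, 4.47 and 4.50 in wild type and 5.22, 4.77 and 4.54 in the mutant. The lowest mutant array lay 0.04 above the highest wild-type array, and the difference of 0.52 ± 0.209 (SE) did not pass (limma adjusted p = 0.232). IKU2, which promotes endosperm growth and seed size, had a mean signal of 2.88 and a difference of 0.04 (limma adjusted p = 0.897). EMS1, which specifies the anther tapetum, differed by -0.20 (0.469).

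Among the receptors of meristem and vascular tissue, MOL1, a repressor of lateral growth of the stem, gave 3.73, 4.18 and 3.41 in wild type and 4.14, 4.21 and 4.22 in the mutant. The groups overlapped through wild-type replicate 2, with a difference of 0.42 (limma adjusted p = 0.284), or 0.23 without wild-type replicate 3. PXL2, a relative of the vascular receptor PXY, differed by -0.22 (0.414). EFR, which perceives bacterial elongation factor Tu, differed by -0.20 (0.443). PSY1R, named for the sulphated peptide PSY1, differed by 0.16 (0.649), TMK1, a kinase of auxin-linked growth, by 0.15 (0.542), and RKF1, a receptor-like kinase known from flowers, by 0.21 (0.645).

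**Figure D3:**
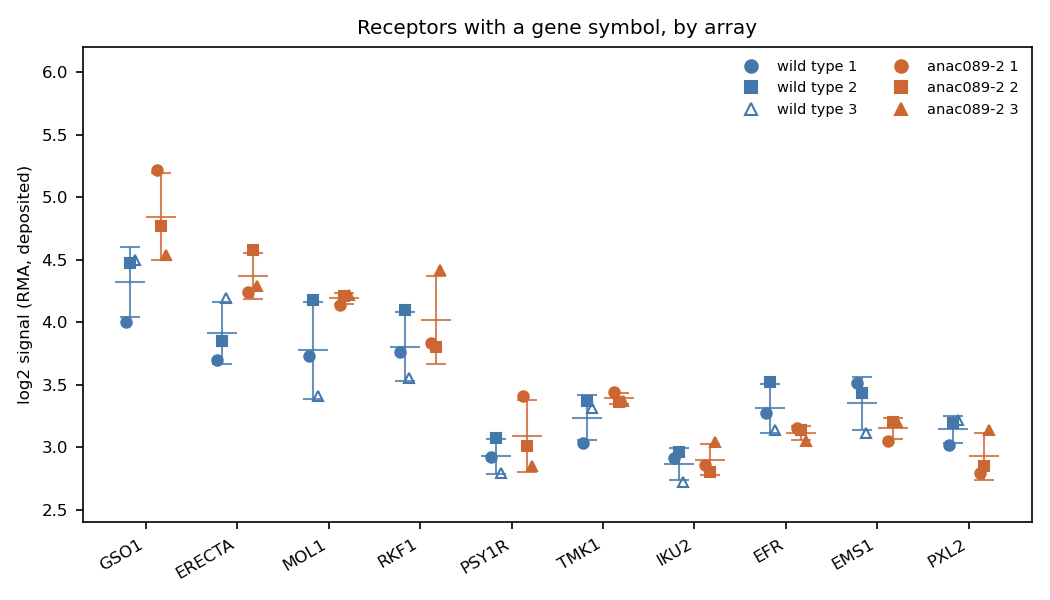
Log2 signal (vertical axis) of the 10 members with a symbol of the role lists, by array, ordered by their difference, with wild type in blue and anac089-2 in orange; symbols mark the replicates and bars show the mean ± SD (n = 3). Groups are apart for GSO1 by 0.04 and for ERECTA by 0.05, and none of the 10 passed the threshold.

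A further 6 receptors or co-receptors of these lists lie outside the title rule. Of them 0 passed, where 2.94% of all probe sets were higher and 1.98% lower. BRI1, the brassinosteroid receptor, gave wild-type signals of 7.12 ± 0.265 (SD, n = 3) and mutant signals of 7.66 ± 0.145 (SD, n = 3), a difference of 0.53 (limma adjusted p = 0.108). BAK1, its co-receptor and that of several immune receptors, had the same mean in both groups, 7.82. SERK2, another co-receptor, differed by 0.49 (limma adjusted p = 0.313), or 0.22 without wild-type replicate 3. BRL1, a BRI1 relative, CLV1, the meristem receptor of CLE peptides, and PXL1 differed by -0.07, 0.16 and 0.10. In all, 16 of the 94 receptors of the role lists could be matched to a probe set. Matching went by gene symbol or synonym, for all lists, so an unmatched gene may still have a probe set.

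Partners of the receptors were taken from 6 lists, of which 50 of 146 genes could be matched to a probe set. Among them 0 were higher and 1 was lower, where 2.94% and 1.98% of all probe sets were. Without wild-type replicate 3, 1 was higher and 2 were lower, where 4% and 3.33% of all probe sets were. These shares also stand beside the counts of the single partner lists. TCH4, a cell wall xyloglucan enzyme that brassinosteroid and touch induce, was the gene that fell. Its signals were 8.04, 7.72 and 7.99 in wild type and 6.92, 6.78 and 6.91 in the mutant. All mutant arrays lay below all wild-type arrays, and TCH4 fell by 1.05 ± 0.118 on the log2 scale (SE, limma adjusted p = 0.0117). The call was lost without mutant replicate 1 (limma adjusted p = 0.0709) or replicate 3 (0.0824). Only 3 of 24 genes of brassinosteroid signalling were matched, so the list as a whole is thinly covered.

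Of the brassinosteroid synthesis list 7 of 12 genes were matched and 0 passed. CPD and ROT3, cytochrome P450 enzymes of that route, differed by 0.97 (limma adjusted p = 0.108) and 0.66 (0.0829). Without wild-type replicate 3, CPD passed as higher at 0.63 (limma adjusted p = 0.0391). Of pattern-triggered immune signalling 15 of 27 were matched and 0 passed. WRKY22, a transcription factor of that response, differed by -0.82 (limma adjusted p = 0.0783), and BIK1, the kinase that immune receptors act on, by -0.31 (0.214). WRKY22 passed as lower without mutant replicate 2, at -1.05 (limma adjusted p = 0.0435).

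Of 54 peptide ligands 16 were matched, 14 of them at a mean signal under 4, and 0 passed. CLE12 differed by -0.51 (limma adjusted p = 0.337) and STOMAGEN, the ligand that promotes stomata, by 0.27 (0.347). Without wild-type replicate 3, CLE12 passed as lower at -0.82 (limma adjusted p = 0.0118). CLV2, the 1 of 9 receptor-like proteins and pseudokinases matched, differed by 0.36 (0.549), or 0.01 without that array. Of 20 developmental outputs 8 were matched and 0 passed. IKU1, which acts with IKU2 in seed growth, differed by 0.30 (limma adjusted p = 0.419) and SHB1 by -0.20 (0.429).

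Members were also placed in the gene order of the RefSeq annotation of assembly TAIR10.1, without coordinates, since no source used here gives the build behind the array annotation. Of the 121 member loci, 26 lie in 8 runs in which at most 1 other protein-coding gene separates neighbouring members. The longest runs hold 7 members (AT1G51790 to AT1G51860), 4 members (AT2G28960 to AT2G29000), 4 members (AT5G59650 to AT5G59680) and 3 members (AT5G49760 to AT5G49780). All 26 had a mean signal under 4, from 2.54 to 3.78, and 0 passed. Members with several listed genes or none were not placed, so neighbours among them are missed. AT1G56145 (mean signal 5.98) is thus outside the runs, and 262082_s_at (6.025), listed with AT1G56140 among its genes, was not placed. Their median difference was -0.02. Of the 95 members at other loci 28 had a mean signal of at least 4 and 4 were called higher (4.21%), with a median difference of 0.08. Over all probe sets 2.94% were called higher, and 0.208% of those with a mean signal under 4. No difference in calls between runs and other loci is therefore read from these counts. Probe sets of neighbouring, similar genes may share target sequence, and 5 members in all are of a probe set type that shares probes between genes.

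**Figure D4:**
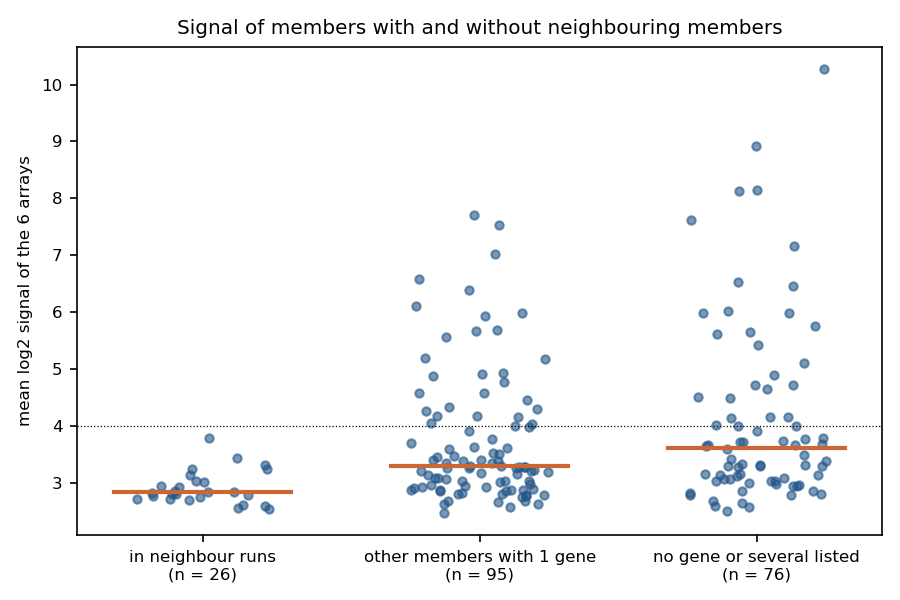
Mean log2 signal of the 6 arrays (vertical axis) of members in neighbour runs, of other members with 1 listed gene and of members with no gene or several listed; points are probe sets, spread sideways for legibility, and orange lines are medians. All 26 members in runs lie under 4 (dotted line), between 2.54 and 3.78. Only members with 1 listed gene could be placed in runs.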

How the data were processed

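Total RNA from seeds was labelled with biotin and hybridised to ATH1 arrays, per the labels' protocols. The authors deposited log2 values with 2 decimals per probe set, and the submitters' processing notes name RMA and limma. No source used here gives versions, the array definition or the build. A comparison table, also deposited by the authors, holds log2 differences with limma p-values and FDRs, per the file headers. In it, 1 p-value cell and 4 FDR cells lacked a decimal point and were taken as 1. Its 6 columns of per-array values were not used.

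Here 22746 probe sets, 64 controls set aside, were fitted in R 4.3.3 by limma 3.58.1 (lmFit, then eBayes, defaults, 3 arrays per group, no block) and called at an adjusted p below 0.05. Each difference is the mutant mean minus the wild-type mean, and SEs are those of the moderated test. The procedure was tested on simulated data. No exact permutation test is reported, because 3 against 3 arrays reach a two-sided p of 0.1 at best.

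Genes were named from the platform's probe annotation, through RefSeq TAIR10.1, and, where it lists none, from the authors' titles. Members and lists (10 role lists, 6 partner lists, 4 marker lists) were chosen with earlier results of these data known. Named were the member that the selection rule names by its probe set, every member past the threshold, the 5 largest differences each way, the 5 brightest members, those with a role-list symbol, the 5 patterns most like that of the first, and from each partner list the genes past the threshold or else the 2 with the largest difference. Alternatives were another normalization, median centring, a filter on dim probe sets, an intensity trend with robust spread, a replicate block, the authors' statistics, a stricter threshold, other member rules and leaving out each array. AT5G63410 and AT1G67720 were named in addition, for calls gained without wild-type replicate 3. Plots were drawn with matplotlib 3.10.9.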

Additional observations from a re-analysis of the deposited data

How the results depend on the processing

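The calls of the 5 called members did not hold under all 13 alternatives tried for each, while their directions did. Only median centring and the second quantile normalization could have changed a direction. The others keep the difference, apart from rounding, or leave out 1 array of groups that do not overlap. The call of the member with the largest difference was kept under 10 of 13, AT3G24240 under 9, AT1G07650 under 8, AT5G01950 under 6 and AT3G28040 under 5. Median centring of each array gave 8 members higher and 2 lower, where 757 and 722 of all 22746 probe sets were. The member median was then -0.027 (all probe sets -0.05). A second quantile normalization gave 7 members higher and 2 lower, where 892 and 809 of all probe sets were. That made 1701 calls over all probe sets against 1120. Centring moved the share of higher among all calls from 59.7% to 51.2%. Without the dimmest 40% of probe sets 8 of 81 members tested were higher, against 938 of all 13643 probe sets tested. The medians were 0.21 and 0.12, with dim probe sets left out of both. At an adjusted p under 0.01, 0 members and 45 probe sets passed. Transmembrane titles alone gave a median of 0.11. Leaving out 1 array at a time gave 0 to 10 members higher, 0 to 2 lower and 4 to 1667 calls over all probe sets, with adjusted p-values for the member with the largest difference of 0.0116 to 0.0824. Without mutant replicate 1 or 3 no member passed, without mutant replicate 2 only that one, while 3 members were higher without wild-type replicate 2 and 10 without wild-type replicate 3. Apart from the filters named, the cause was not tested. With the replicate number as a block, 4 members were higher and 494 probe sets passed. Same-numbered arrays did not deviate together (correlations -0.09, -0.06 and -0.14), so the numbers were not taken as pairs. For the 22 named members not called, AT5G63410 and AT1G67720 aside, 21 of 279 values under alternatives passed. AT1G34110 and 256482_at passed as higher under 5 alternatives each and 247153_at under 4, 266231_at and AT2G01820 as lower under centring, quantile normalization and without wild-type replicate 3, and ERECTA as higher without that array. Signal over background is not known, and 3 arrays per group limit what can be called.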
